A study of Mus musculus with 18 samples.

Results

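Fibroblasts make and anchor the extracellular matrix, and the genes described here are 46 of their matrix and surface genes. The list holds collagens, elastic fibre proteins, adhesive glycoproteins, small proteoglycans, crosslinking enzymes, matrix proteases with their inhibitors, surface receptors and cadherins, and the cytoplasmic proteins vimentin and S100a4. Each gene was read from the probe set of that gene with the highest mean signal over all 18 arrays. Of the 46 genes, 44 had a probe set of their own, out of 17903 genes with a probe set in the series. Fbn1 was named by no probe set, and Loxl2 only by 2 probe sets that also name another gene, so neither was given a value.

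The arrays came from mouse cells on their way to induced pluripotent stem cells (iPSC), with or without the transcription factor that the labels call Tcf3. Reprogramming cultures made with the factor set labelled OCK were harvested on days 11, 15, 19, 22 and 26. Each day has 1 array of Tcf3 wild type (wt) and 1 of Tcf3 knockout (ko) cells. A partially reprogrammed OCK clone of Tcf3 wt genotype was treated with control siRNA (1 array) or with either of 2 different Tcf3 siRNAs, A and B (1 array each), and harvested on day 2 of treatment. Fully reprogrammed clones were made with the factor set labelled OSK (1 wt clone and 2 ko clones) or with OCK (2 ko clones), 1 array each. The labels do not name the starting cell, the strain, any feeder cells or separate cultures for the arrays. The p-values therefore rest on differences from array to array that may be only technical. All 3 partial arrays are from 1 clone. The OSK wt clone and the control siRNA have a single array each, assumed to vary like the groups with 2.

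Fibroblast matrix is built outside the cell. Procollagens are hydroxylated and folded in the cell, secreted, trimmed and assembled into fibrils, which small leucine-rich proteoglycans such as decorin and lumican help to space and which lysyl oxidases crosslink. Elastic fibres form on a scaffold of fibrillins and fibulins, fibronectin ties the network to integrins, and matrix metalloproteases (MMPs) and their tissue inhibitors (TIMPs) remodel it. Loss of this programme together with gain of epithelial and pluripotency genes is a known feature of reprogramming.

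Promoters of 4 members are shown because these genes, picked after their values were seen, stand for 4 different outcomes: Vim kept most of its signal in the partial clone, Col1a2 was kept in part there, Postn was nearly lost there, and Kera fell most per day in the cultures. Each run gives the 250 bases before an annotated start, 5′ to 3′, from RefSeq on GRCm38.p6, all on the plus strand. Capitals mark CCAAT or its reverse complement ATTGG, and TATAAA or its reverse complement TTTATA. Postn has 2 annotated starts in the table, and the start whose window holds TATAAA is shown. Vim lies at chr2:13574061-13574310, Col1a2 at chr6:4505368-4505617, Postn at chr3:54360857-54361106 and Kera at chr10:97606955-97607204.
Vim: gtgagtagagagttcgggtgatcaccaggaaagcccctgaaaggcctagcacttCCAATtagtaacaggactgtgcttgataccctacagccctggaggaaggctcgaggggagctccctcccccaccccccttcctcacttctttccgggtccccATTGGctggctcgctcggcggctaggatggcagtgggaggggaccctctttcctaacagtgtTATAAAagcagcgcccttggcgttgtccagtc
Col1a2: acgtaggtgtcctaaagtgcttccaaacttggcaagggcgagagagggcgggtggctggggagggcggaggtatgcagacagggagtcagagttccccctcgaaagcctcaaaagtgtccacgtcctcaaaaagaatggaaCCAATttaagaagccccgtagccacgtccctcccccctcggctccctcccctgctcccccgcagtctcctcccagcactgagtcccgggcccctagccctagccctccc
Postn: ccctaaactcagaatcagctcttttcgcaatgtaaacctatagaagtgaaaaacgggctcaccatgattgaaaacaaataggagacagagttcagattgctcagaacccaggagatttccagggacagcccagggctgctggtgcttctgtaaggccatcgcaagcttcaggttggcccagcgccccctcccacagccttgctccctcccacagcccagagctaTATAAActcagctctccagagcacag
Kera: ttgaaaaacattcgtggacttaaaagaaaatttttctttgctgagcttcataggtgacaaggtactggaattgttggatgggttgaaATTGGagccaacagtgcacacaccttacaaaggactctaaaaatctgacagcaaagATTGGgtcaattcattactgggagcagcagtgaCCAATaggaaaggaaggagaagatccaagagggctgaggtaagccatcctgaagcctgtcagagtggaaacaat

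In the Vim window, TATAAA begins 32 bases before the start, with CCAAT motifs at 196 and 94 bases. The Col1a2 window holds CCAAT at 109 bases, the Postn window TATAAA at 26 bases, and the Kera window CCAAT motifs at 163, 107 and 74 bases before the start. The promoter table held 28 of the 46 members, with 33 windows. CCAAT on either strand was in 10 of these 33 windows (30.3%), against 33.8% of all 32851 windows of the same length. TATAAA on either strand was in 8 of 33 (24.2%), against 12.4% of all windows. A window with both motifs counts under both, and overlaps were not removed. These are matches of letters only.

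Signals are log2 values after robust multi-array averaging (RMA), with a floor of 5.64, the log2 of 50, below which no signal was given; a value at the floor is an upper limit. Members were above the floor on all 10 culture arrays, all 44 of them. The median of the 44 was 12.91 in wt and 12.95 in ko cultures on day 11, between 8.83 and 9.30 on the 3 partial arrays, and between 6.65 and 7.83 on the 5 iPSC arrays. Over all genes the median signal stayed between 7.06 and 7.41 on the 18 arrays. The targeted gene, which the array annotation names Tcf7l1, was lower in ko than in wt on each of the 5 days by both of its probe sets (8.10 to 9.48 against 9.06 to 9.90 by the brighter of them), and lower with both Tcf3 siRNAs (8.80 and 8.77) than with control siRNA (9.93). In the OSK clones it read 10.68 in wt and 9.49 and 9.37 in ko. A signal remained in the ko arrays, and where the probes lie relative to the knockout is stated by none of the sources used.

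**Figure D1:**
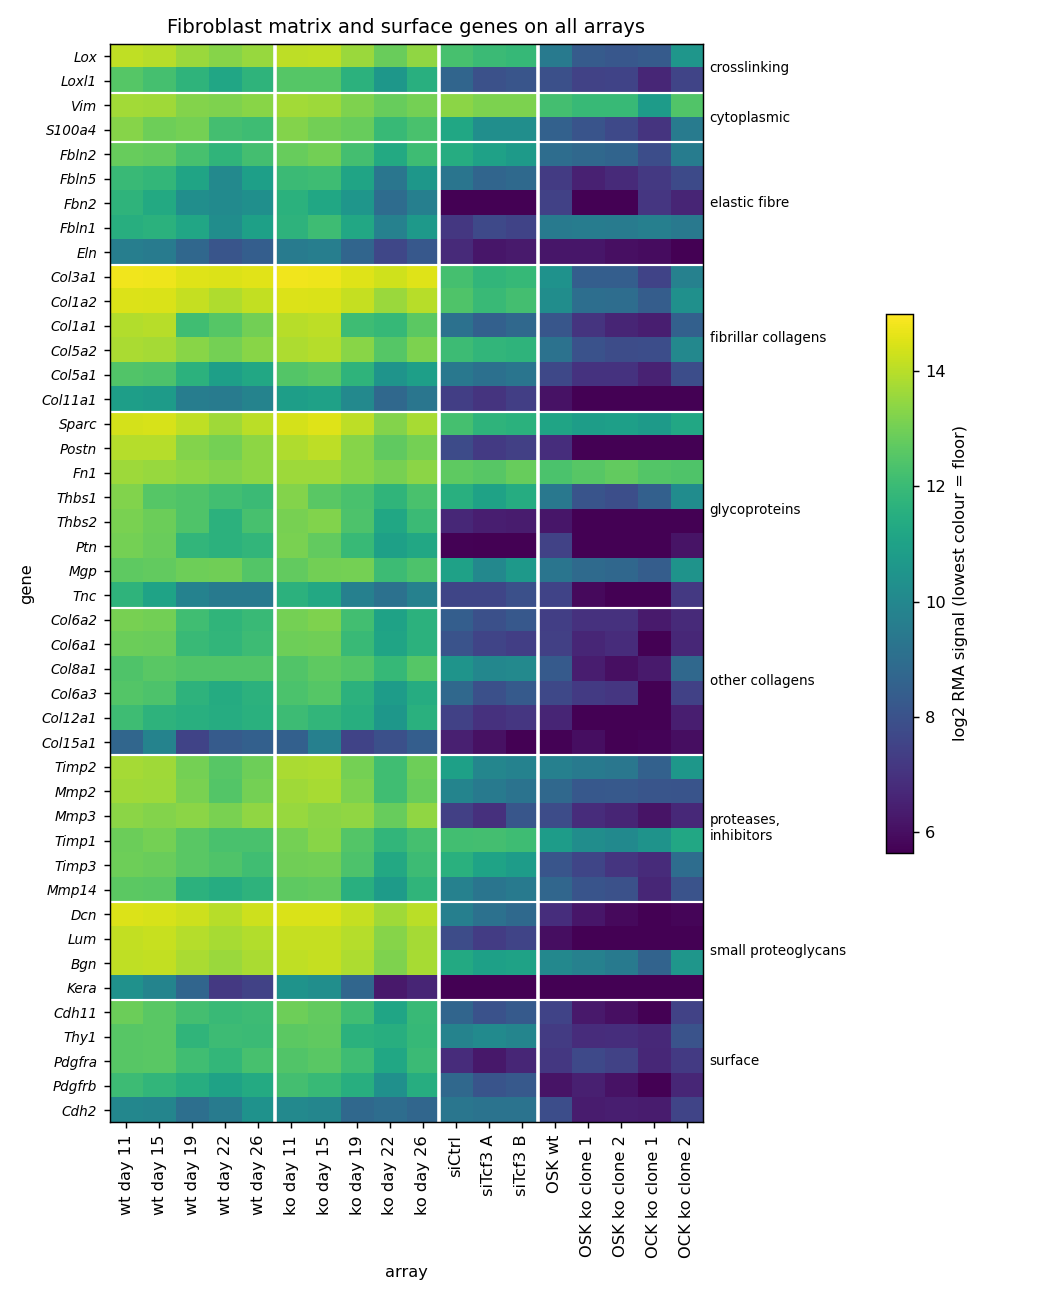
Log2 RMA signal of the 44 genes (rows, grouped by role) on 18 arrays (columns); the darkest colour is the floor, 5.64. All 44 genes were above the floor in every culture array, and the member median was 12.91 in wt on day 11 and between 6.65 and 7.83 in the iPSC clones.

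Over days 11 to 26 most of these genes fell in the OCK cultures. When a straight line was fitted per genotype and both slopes were averaged, 31 of 44 members were called lower, 0 higher and 13 were not called, against 18.7% of all 13428 genes tested called lower. The median slope of the members was -0.0724 log2 units per day, and that of all genes -0.00109. The largest called change was that of Kera, the corneal and stromal proteoglycan keratocan, with -0.27 ± 0.036 log2 units per day (SE, limma, adjusted p = 0.0039). Next, by the probe sets used, came Tnc (-0.16 ± 0.028), Fbn2 (-0.14 ± 0.026), Fbln5 (-0.13 ± 0.037) and Ptn (-0.12 ± 0.019), which encode tenascin C, fibrillin 2, fibulin 5 and the growth factor pleiotrophin. Another Ptn probe set, also bright on day 11, had a slope of -0.217, so this order depends on the probe set. In bulk samples fewer fibroblasts and less RNA per fibroblast cannot be told apart. When wt and ko were averaged into 1 value per day, so that each day counts once, only Kera was still called (adjusted p = 0.0423), and 351 genes in all. The calls also need the early arrays. Without day 11, 0 members were called, and no gene at all was called in that fit. Without day 15 it was 11 members (7.0% of all genes were called lower in the same fit), and without day 19 it was 17 (13.7% of all genes).

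Fibrillar collagens, the tensile rods of the matrix, were called lower in 5 of 6 members. Values below are in the order of days 11, 15, 19, 22 and 26. Col1a1, a chain of type I collagen, read 13.92, 13.98, 12.12, 12.53 and 13.00 in wt and 13.98, 14.08, 12.11, 11.92 and 12.64 in ko cultures. In both genotypes the drop came between days 15 and 19, and the later arrays stayed below both early ones (-0.11 ± 0.038 per day, adjusted p = 0.0483).

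The second chain, Col1a2, read 14.52, 14.47, 14.17, 13.88 and 14.15 in wt and 14.49, 14.47, 14.18, 13.59 and 14.01 in ko cultures, with a slope of -0.042 ± 0.013 by the probe set used. Other Col1a2 probe sets gave -0.07 and -0.099, and the other Col1a1 probe set gave -0.088. Col5a2, a chain of type V collagen, which helps nucleate fibrils, read 13.80, 13.75, 13.34, 13.04 and 13.32 in wt and 13.84, 13.97, 13.34, 12.54 and 13.17 in ko cultures (-0.059 ± 0.018 per day). Its partner Col5a1 read 12.45, 12.40, 11.67, 10.94 and 11.27 in wt and 12.50, 12.63, 11.71, 10.49 and 10.92 in ko cultures (-0.12 ± 0.023 per day). Both type V chains were called lower. Col11a1, a minor fibril chain best known from cartilage, read 10.87, 10.76, 9.61, 9.54 and 9.83 in wt and 10.88, 10.99, 10.03, 8.82 and 9.32 in ko cultures (-0.12 ± 0.025 per day). For Col1a2, Col5a1, Col5a2 and Col11a1, every array of days 19 to 26 was below every array of days 11 and 15. Col3a1, the type III collagen chain, was by the probe set used the exception in the group and was not called. It read 14.79, 14.76, 14.53, 14.49 and 14.59 in wt and 14.79, 14.76, 14.55, 14.31 and 14.55 in ko cultures (-0.021 ± 0.0088 per day, adjusted p = 0.0844). Its value was the highest of any gene on the day 11 and day 15 arrays, 14.79 and 14.76, and whether the signal scale is compressed there was not tested. By the other Col3a1 probe set the slope was -0.073. That probe set read 13.59, 13.52, 12.93, 12.57 and 13.0 in wt and 13.54, 13.53, 12.94, 11.93 and 12.66 in ko cultures.

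Among the other collagens, the 3 type VI chains, which form beaded filaments around cells, were called lower, and the remaining 3 members were not. Col6a2 read 13.07, 13.00, 12.12, 11.76 and 11.99 in wt and 13.03, 13.19, 12.16, 11.05 and 11.67 in ko cultures (-0.11 ± 0.024 per day) and Col6a1 12.91, 12.86, 11.99, 11.80 and 12.06 and 12.93, 12.98, 12.00, 11.12 and 11.65 (-0.10 ± 0.022). The slope of Col6a3 was -0.083 ± 0.021, and for these chains day 22 in ko was the lowest array. Col8a1, a short-chain collagen, read 12.41, 12.59, 12.45, 12.46 and 12.47 in wt and 12.45, 12.69, 12.50, 11.91 and 12.52 in ko cultures, nearly level in wt. Col15a1, a basement-membrane-zone collagen, did not follow a line: it read 8.74, 9.82, 7.54, 8.33 and 8.50 in wt and 8.52, 9.73, 7.51, 7.94 and 8.42 in ko cultures, so that day 15 was more than 1 log2 unit above day 11, and day 19 more than 2 below day 15, in both genotypes. These are differences between single arrays. Neither Col8a1 (adjusted p = 0.658) nor Col15a1 (adjusted p = 0.354) had a called slope.

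All 5 measured elastic fibre genes were called lower. Fbn2, a fibrillin of developing elastic fibres, read 11.74, 11.33, 10.26, 10.11 and 10.30 in wt and 11.63, 11.22, 10.54, 8.95 and 9.67 in ko cultures (adjusted p = 0.0078). Fbln5, which guides elastin assembly, read 11.98, 11.85, 11.09, 10.03 and 10.92 in wt and 12.03, 12.11, 11.10, 9.31 and 10.60 in ko cultures (adjusted p = 0.0287). Eln, elastin itself, read 9.66, 9.52, 8.78, 8.10 and 8.44 in wt and 9.52, 9.63, 8.68, 7.64 and 8.22 in ko cultures (-0.11 ± 0.023 per day, adjusted p = 0.0098). Day 22 was the lowest day of these 3 genes in both genotypes. Fbln2, a fibulin of basement membranes and elastic fibres, read 12.83, 12.75, 12.28, 11.77 and 12.19 in wt and 12.83, 13.02, 12.21, 11.33 and 12.11 in ko cultures (-0.071 ± 0.022 per day), and Fbln1 had a slope of -0.091 ± 0.03.

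Of the 8 glycoproteins and matricellular proteins, 6 were called lower. Tnc, an anti-adhesive glycoprotein of remodelling tissue, read 11.71, 11.08, 9.78, 9.47 and 9.48 in wt and 11.67, 11.29, 9.70, 9.14 and 9.75 in ko cultures, a fall already seen from day 11 to day 15. Ptn read 13.06, 12.86, 11.80, 11.67 and 11.81 in wt and 13.10, 12.74, 11.94, 10.97 and 11.24 in ko cultures. Postn, the matricellular protein periostin, read 13.94, 13.95, 13.28, 13.03 and 13.40 in wt and 13.89, 14.07, 13.31, 12.72 and 13.04 in ko cultures (-0.068 ± 0.018 per day). Both Ptn (adjusted p = 0.0051) and Postn (adjusted p = 0.0202) had all late arrays below the early ones.

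Sparc, a collagen-binding glycoprotein, read 14.40, 14.42, 14.11, 13.67 and 14.02 in wt and 14.38, 14.54, 14.05, 13.28 and 13.79 in ko cultures (-0.052 ± 0.017 per day). Thbs2, a thrombospondin that affects collagen fibril assembly, read 13.11, 12.89, 12.42, 11.66 and 12.27 in wt and 13.09, 13.23, 12.40, 11.21 and 12.03 in ko cultures (-0.093 ± 0.026 per day). Thbs1, the related thrombospondin 1, had a slope of -0.075 ± 0.016, and all 3 genes were called lower. Fn1, fibronectin, was not called: it read 13.62, 13.55, 13.40, 13.28 and 13.42 in wt and 13.62, 13.64, 13.35, 13.07 and 13.39 in ko cultures (-0.023 ± 0.0097 per day, adjusted p = 0.0966). A far dimmer Fn1 probe set had a slope the other way, 0.059. It read 7.95, 7.64, 8.82, 8.45 and 8.45 in wt and 7.83, 7.31, 8.76, 8.35 and 8.55 in ko cultures. Mgp, matrix Gla protein, an inhibitor of calcification, was also not called and read 12.67, 12.76, 12.93, 12.98 and 12.48 in wt cultures, where day 22 was the highest day. In ko cultures Mgp read 12.76, 13.00, 13.06, 12.04 and 12.38.

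By the probe sets used, the small leucine-rich proteoglycans split. Kera was called and read 10.37, 9.85, 8.69, 7.19 and 7.48 in wt and 10.45, 10.25, 8.74, 6.28 and 6.60 in ko cultures, 9.05 times lower in wt and 17.9 times lower in ko on day 22 than on day 11. Dcn (decorin) read 14.49, 14.45, 14.30, 14.00 and 14.28 in wt and 14.47, 14.46, 14.19, 13.68 and 14.03 in ko cultures with a slope outside the 0.05 threshold (adjusted p = 0.0554). Lum (lumican) read 14.15, 14.21, 13.95, 13.76 and 13.91 in wt and 14.17, 14.17, 13.97, 13.30 and 13.73 in ko cultures (adjusted p = 0.0561), and neither gene passed it. Bgn (biglycan) read 14.09, 14.15, 13.81, 13.60 and 13.82 in wt and 14.11, 14.18, 13.83, 13.18 and 13.78 in ko cultures (-0.036 ± 0.015 per day, adjusted p = 0.0865). By the probe sets used, decorin, lumican and biglycan had negative slopes in the mean of wt and ko, much smaller than that of Kera, though a test of that difference was not run. A far dimmer Dcn probe set had a slope of -0.131, against -0.033 by the one used. It read 8.18, 7.89, 7.40, 5.88 and 6.85 in wt and 7.73, 7.82, 7.31, 5.86 and 6.11 in ko cultures. The other Bgn probe set had a slope of -0.05.

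Both measured lysyl oxidases, which crosslink collagen and elastin, were called lower. Lox read 14.11, 13.98, 13.60, 13.31 and 13.54 in wt and 14.08, 14.11, 13.58, 12.85 and 13.44 in ko cultures (-0.058 ± 0.017 per day). Loxl1 read 12.52, 12.24, 11.74, 11.19 and 11.71 in wt and 12.53, 12.53, 11.65, 10.59 and 11.54 in ko cultures (-0.088 ± 0.025 per day). Day 22 in ko cultures was the lowest point of each.

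Proteases and inhibitors were called lower in 5 of 6 members. Mmp2, a gelatinase, read 13.66, 13.63, 13.12, 12.51 and 13.05 in wt and 13.66, 13.79, 13.14, 12.13 and 12.82 in ko cultures (-0.075 ± 0.022 per day), and its membrane-bound activator Mmp14 had a slope of -0.093 ± 0.027. Timp2, which takes part in that activation, read 13.74, 13.68, 13.05, 12.56 and 12.94 in wt and 13.80, 13.86, 13.04, 12.14 and 12.92 in ko cultures (-0.083 ± 0.022 per day). Timp1 read 12.89, 13.06, 12.60, 12.33 and 12.33 in wt and 13.04, 13.32, 12.50, 11.81 and 12.25 in ko cultures (-0.066 ± 0.017 per day). Timp3, the matrix-bound inhibitor, read 12.94, 12.86, 12.61, 12.44 and 12.13 in wt and 12.97, 12.99, 12.39, 11.29 and 12.07 in ko cultures (-0.073 ± 0.02 per day), so all 3 inhibitors were called lower. Mmp3, stromelysin 1, read 13.36, 13.27, 13.37, 13.10 and 13.45 in wt and 13.55, 13.37, 13.45, 12.84 and 13.46 in ko cultures and was not called (adjusted p = 0.641).

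Surface genes were called lower in 2 of 5 members, Thy1 and Cdh11. Thy1, a GPI-anchored fibroblast marker, read 12.58, 12.60, 11.77, 12.05 and 12.02 in wt and 12.63, 12.73, 11.62, 11.52 and 11.92 in ko cultures (-0.059 ± 0.019 per day). Cdh11, the mesenchymal cadherin 11, read 12.91, 12.62, 12.20, 11.99 and 12.07 in wt and 12.94, 12.74, 12.14, 11.13 and 11.94 in ko cultures (-0.079 ± 0.02 per day). For both genes all late arrays were below the early ones. Pdgfra, a receptor for platelet-derived growth factor, read 12.56, 12.61, 12.14, 11.84 and 12.26 in wt and 12.46, 12.60, 12.11, 11.20 and 12.03 in ko cultures (-0.048 ± 0.021 per day) and was not called (adjusted p = 0.0947). The related receptor Pdgfrb had a slope of -0.069 ± 0.024 and was not called either (adjusted p = 0.0524).

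Cdh2, N-cadherin, which neural cells also carry, read 9.99, 9.91, 9.06, 9.52 and 10.41 in wt and 10.03, 9.94, 8.80, 9.0 and 8.73 in ko cultures, so the genotypes stood apart on day 26. The mean of 5 neural markers (Pax6, Sox1, Tubb3, Dcx and Elavl4) reached its highest value, 9.65, on the same wt day 26 array, and Dcx read 9.72 there and 5.64 in ko on day 26. On day 22 it went the other way: the neural mean was 8.77 in ko and 8.35 in wt, while Cdh2 was 9.0 in ko and 9.52 in wt. The part of neural cells in the Cdh2 value was not tested. Of the cytoplasmic genes, S100a4 read 13.31, 12.94, 13.05, 12.21 and 12.11 in wt and 13.25, 13.02, 12.82, 11.94 and 12.33 in ko cultures (-0.08 ± 0.016 per day), and the intermediate filament gene Vim read 13.72, 13.65, 13.26, 13.20 and 13.33 in wt and 13.70, 13.62, 13.18, 12.81 and 13.04 in ko cultures (-0.045 ± 0.011 per day); both were called lower.

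**Figure D2:**
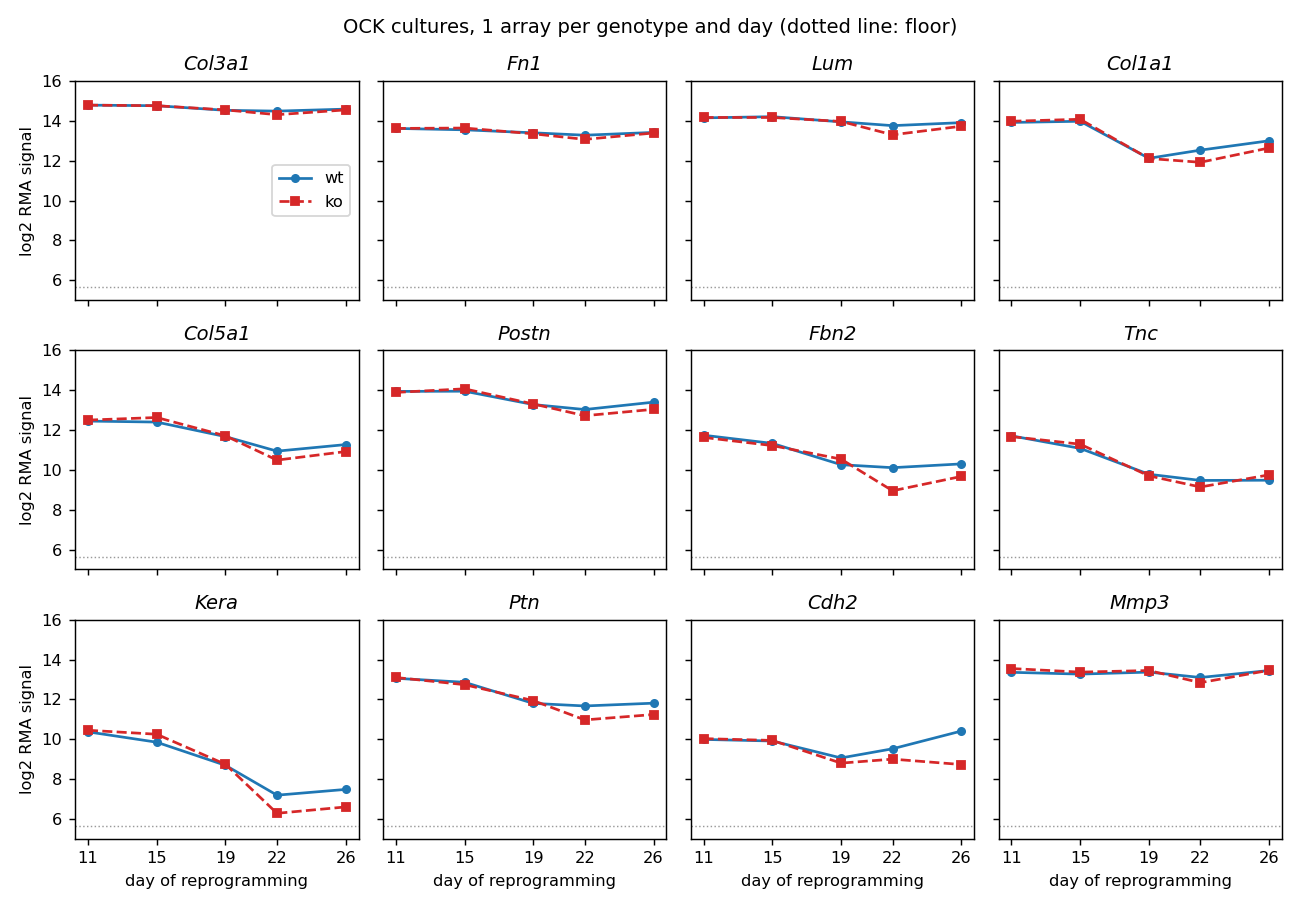
Log2 RMA signal of 12 of the genes in OCK cultures against day, wt as circles with solid lines and ko as squares with dashed lines, 1 array per point; the dotted line is the floor, 5.64. Kera falls from 10.37 to 7.48 in wt and from 10.45 to 6.60 in ko, while Mmp3 and, by the probe set drawn, Col3a1 stay nearly level. The other Col3a1 probe set, not drawn, fell more. Cdh2 on day 26 is 10.41 in wt and 8.73 in ko.

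The loss was not even over time. From day 11 to 15 the median member changed by -0.07 in wt and by 0.06 in ko, and from day 15 to 19 by -0.47 and -0.73 log2 units. The next step, day 19 to 22, gave -0.27 in wt and -0.87 in ko, and from day 22 to 26 the medians were 0.26 and 0.60 higher. These are differences between single arrays, with no replicate check. From day 15 to 19, 7 members in wt (1.33% of all genes) and 9 in ko (3.09% of all genes) were at least 2-fold lower. From day 19 to 22 it was 2 in wt (1.72% of all genes) and 15 in ko (3.95% of all genes). On day 26, 38 members in wt and 43 in ko were above their day 22 value, while 53.73% of all genes in wt and 50.9% in ko were below it. For 39 of 44 members all arrays of days 19, 22 and 26 lay below all arrays of days 11 and 15, compared with 20.9% of all genes.

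Markers of other cell types also differed over the same days. The mean of 7 macrophage markers, Lyz2 and Csf1r among them, lay between 6.35 and 7.85 in wt and between 6.26 and 8.11 in ko cultures; Lyz2 read 10.34, 10.56, 9.12, 7.86 and 8.07 in wt and 10.31, 11.23, 9.45, 7.33 and 8.28 in ko cultures. Averaged over 3 adipocyte markers (Adipoq, Fabp4 and Pparg), the wt cultures read 9.19, 11.36, 10.58, 10.63 and 10.25. The ko cultures read 8.59, 10.79, 9.90, 9.81 and 9.91, so day 11 was lowest in both genotypes. By the mean slope of wt and ko, 0 of the 3 were called higher and 1 lower. The mean of 8 pluripotency markers went from 6.56 to a highest value of 8.17 in wt and from 6.54 to 9.48 in ko, and that of 7 epithelial markers lay between 8.0 and 9.75 in wt and between 8.09 and 10.78 in ko. Acta2, Itgam, Emcn and Ibsp were at the floor on all 18 arrays. The part of these cell types in the members' changes was not tested.

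Taken separately, the wt slopes gave 0 of 44 members called lower, against 0.0532% of all genes, although 42 slopes were negative. At an unadjusted p under 0.05 the count in wt was 13 of 44 members, against 26.4% of all genes. limma's plain variance prior also called 0, and without day 22 it was 1 (0.428% of all genes). In ko cultures 11 members were called lower, against 7.11% of all genes: Kera, Fbn2, Tnc, Ptn, Col5a1, Col11a1, Col6a2, Eln, Col6a1, S100a4 and Vim. Kera had -0.23 ± 0.051 per day in wt (adjusted p = 0.0704) and -0.31 ± 0.051 in ko (adjusted p = 0.0221). With limma's plain variance prior the ko count was 0, and 1 of all 17903 genes was called lower. It was also 0 without day 11 or 15, where no gene at all was called, and without day 19 (0.0909% of all genes lower). Without day 26 it was 35 (13.7% of all genes).

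The 2 genotypes were not shown to differ in their slopes. The difference between ko and wt slopes was called for 0 of 44 members and 0.0% of all genes; at an unadjusted p under 0.05 it was 0 members and 208 genes. Its median over members was -0.0239 log2 units per day, and 40 members had the more negative slope in ko. The difference in mean level, with day as a block, was likewise called for 0 of 44 members and 0.0% of all genes (unadjusted: 0 members and 452 genes), with a median of -0.115. The largest was that of Cdh2, -0.48 ± 0.25 (SE, adjusted p = 1), followed by Fbn2 at -0.35 ± 0.20. limma's plain variance prior also called 0 members in both comparisons.

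Day by day, the ko minus wt difference of the median member was 0.01 on day 11, 0.13 on day 15 and -0.01 on day 19. On day 22 it was -0.48, and all 44 members were lower in ko, from -0.18 (Col3a1) to -1.16 (Fbn2), whereas 47.43% of all genes were lower in ko that day. On day 26 it was -0.16, with 36 members lower in ko. The ko day 22 array was the lowest of the 10 culture arrays for 42 of 44 members, compared with 22.04% of all genes. With 1 array per genotype and day, that array and the condition cannot be told apart.

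**Figure D3:**
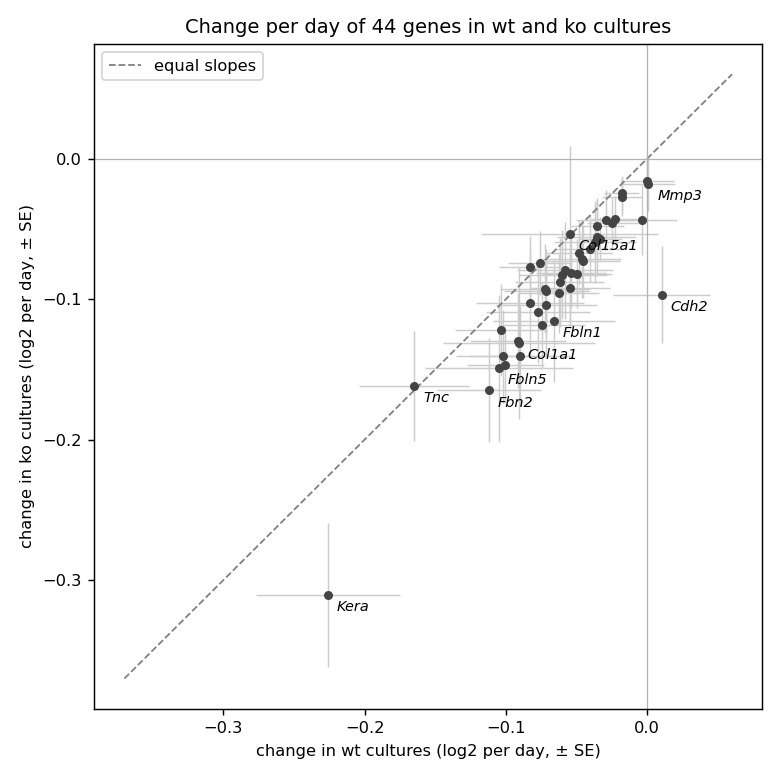
Change per day of the 44 genes in ko cultures (vertical) against wt cultures (horizontal), in log2 units per day with SE bars from the fit of 10 arrays; the dashed line marks equal slopes. Kera is farthest from 0 in both genotypes, and 40 of 44 points lie below the line.

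In the partially reprogrammed clone most members were far below the day 11 cultures, but some were kept. Partial arrays against day 11 arrays gave 42 of 44 members called lower (28.0% of all genes), with a median difference of -3.37 log2 units. All 3 partial arrays were below every culture array for 39 members (17.3% of all genes); the exceptions were Fbln2, Timp1, Timp3, Cdh2 and Vim. The linear signal left, relative to day 11, had a median of 9.70%. It was at least 25% for 8 members and under 5% for 14.

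The kept members came from several roles. Vim read 13.39, 13.14 and 13.16 with control siRNA, siRNA A and siRNA B, which is 71.8% of day 11, and was not called (-0.48 ± 0.38, adjusted p = 0.308). Cdh2 read 9.31, 9.19 and 9.21 (58.4%) and was not called either (adjusted p = 0.149). Timp1, the secreted MMP inhibitor, read 12.18, 12.22 and 12.09 (57.2%) and Fn1 12.69, 12.56 and 12.84 (52.8%).

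Fbln2, Timp3, Thbs1 and Col5a2 kept 29.4%, 28.8%, 26.7% and 25.8% of their day 11 signal, and Lox, at 12.28, 12.02 and 11.92, kept 24.6%. By the probe sets used, the type I collagen chain Col1a2 read 12.42, 11.98 and 12.19 and kept 20.2%, and Col1a1 read 9.13, 8.50 and 8.80 and kept 2.84%. By another bright probe set, Col1a1 read 12.95 (wt) and 12.93 (ko) on day 11 and 10.09, 9.21 and 9.68 in the partial clone. Another Col1a2 probe set read 14.09 and 14.08 on day 11 and 10.95, 10.43 and 10.82 in the partial clone. The change of each chain thus depends on the probe set, and no difference between the chains is given. Col3a1 read 12.25, 11.79 and 11.90 (14.3%), and Col5a1 9.38, 9.11 and 9.29 (10.8%). By its other probe set Col3a1 fell further, from 13.59 (wt) and 13.54 (ko) on day 11 to 8.21, 7.45 and 7.79 in the partial clone.

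Further members that the naming rule selects kept between 3.44% and 29.4% of the day 11 signal. Fbln2 read 11.45, 11.01 and 10.74, Sparc 12.23, 11.71 and 11.60 (17.1%) and S100a4 11.22, 10.27 and 10.26 (15.5%). Mmp2 read 9.85, 9.51 and 9.21 (5.69%), Timp2 10.95, 9.95 and 9.80 (8.63%) and Loxl1 8.71, 7.96 and 8.12 (5.20%). Fbln5 read 9.29, 8.71 and 8.84 (12.0%), Eln 6.74, 6.22 and 6.32 (11.2%) and Tnc 7.60, 7.60 and 7.91 (6.30%). In each of these genes but Tnc the control siRNA array was the highest of the 3. Bgn read 11.34, 10.95 and 11.02 (12.5%), Col11a1 7.38, 7.03 and 7.36 (8.12%), Col6a2 8.44, 7.92 and 8.21 (3.44%) and Cdh11 8.69, 8.0 and 8.30 (4.14%).

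The lost members included genes with strong culture signals. Ptn read 5.70, 5.64 and 5.64, at the floor on 2 of 3 arrays, so at most 0.585% was left; it was called lower (adjusted p = 3.1e-07). Kera and Fbn2 were at the floor on all 3 arrays, so Kera was at least 27.1-fold and Fbn2 at least 66.0-fold lower than on day 11. Thbs2 read 6.69, 6.44 and 6.34 (1.03% left), Lum 7.82, 7.32 and 7.56 (1.04%) and Postn 7.77, 7.23 and 7.40 (1.14%).

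Pdgfra, the PDGF alpha receptor, read 6.84, 6.23 and 6.63 and kept 1.62%, and Mmp3 read 7.41, 6.93 and 8.16 and kept 1.61%. Dcn read 9.67, 9.12 and 8.83 (2.59%) and Col6a1 8.03, 7.55 and 7.37 (2.59%). By role, the median difference from day 11 was -5.02 for the 4 small proteoglycans, -4.47 for the other collagens, -3.01 for the fibrillar collagens and -1.59 for the 2 cytoplasmic genes. In this clone the 3 adipocyte markers were at the floor on all arrays and the macrophage mean was between 5.81 and 5.94. The mean of 6 primitive and parietal endoderm markers was between 6.88 and 7.16 in the partial clone, against 6.85 and 6.86 on day 11. Of the 5 tested, 1 was called higher than on day 11, Gata6 at 10.60, 10.20 and 10.08, 1 was lower, Dab2 at 8.94, 8.17 and 8.25, and 3 were not called. The mean of 7 smooth muscle and pericyte markers was between 7.14 and 7.23, against 7.23 and 7.32 on day 11.

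Silencing of Tcf3 for 2 days in the clone gave no called member. siTcf3 against control siRNA gave 0 of 42 tested members called (0.111% of all genes were called lower), 8 at an unadjusted p under 0.05 (12.7% of all genes), and 0 also with limma's plain variance prior. The median difference was -0.40 log2 units, against -0.00224 over all genes. Both siTcf3 arrays were below the control array for 36 of 44 members (39.8% of all genes) and above it for 2, Thy1 and Fbln1 (36.6% of all genes). For Fbln1 this is the probe set used; by the other bright one the Tcf3 siRNA arrays lay on either side of the control. Dcn went from 9.67 to 9.12 and 8.83 (-0.70 ± 0.19, adjusted p = 0.22) and Timp2 from 10.95 to 9.95 and 9.80 (-1.08 ± 0.73, adjusted p = 0.609). There is only 1 control array, and without either OCK ko iPSC clone in the same fit 4 members were called lower (3.38% and 3.51% of all genes without clone 1 and clone 2).

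In the iPSC clones every measured member was lower than on day 11. The difference was called for 44 of 44 members (31.4% of all genes), with a median of -5.22 log2 units, and every iPSC array was below every culture array for all 44, compared with 19.7% of all genes. The median signal left was 2.69%. It was under 5% for 33 members and at least 25% for 2, Fn1 and Vim.

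Fibronectin kept the highest percentage of its day 11 signal. Fn1 read 12.35, 12.57, 12.74, 12.48 and 12.42 in OSK wt, OSK ko clones 1 and 2, and OCK ko clones 1 and 2, which is 46.4% of day 11. Vim read 12.22, 11.93, 11.96, 10.79 and 12.45 in the same order (27.9%) and was lowest in OCK ko clone 1. Fbln1, fibulin 1, read 9.48, 9.56, 9.54, 9.68 and 9.41 (23.8%) by the probe set used, with a spread of under 0.3 log2 units over the 5 clones.

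Timp1 read 10.80, 10.24, 10.08, 10.44 and 11.27 (18.9%) and Sparc 11.11, 10.84, 10.93, 10.75 and 11.25 (9.37%). Fbln1, Timp1 and Sparc all encode secreted proteins. At the other end, Lum read 5.99, 5.64, 5.64, 5.64 and 5.64 (0.287%), Dcn 6.85, 6.20, 5.88, 5.64 and 5.76 (0.294%) and Postn 6.88, 5.64, 5.64, 5.64 and 5.64 (0.384%). Lum and Postn were above the floor in OSK wt only, and Kera was at the floor in all 5 clones. Thbs2 read 6.20, 5.64, 5.64, 5.64 and 5.64 (0.616%), Cdh11 7.54, 6.28, 6.04, 5.64 and 7.47 (1.24%), Mmp3 7.82, 6.84, 6.61, 6.13 and 6.71 (1.0%) and Col1a1 8.16, 7.05, 6.61, 6.42 and 8.50 (1.03%). In these clones the mean of the 8 pluripotency markers was between 12.18 and 12.41, and the 3 adipocyte markers were at the floor.

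Set against the iPSC clones, the partial clone kept more of most members. Of 43 members tested, 35 were higher in the partial clone (25.9% of all genes) and 2 were lower (34.8% of all genes), with a median difference of 1.46. The 3 partial arrays were above all 5 iPSC arrays for 31 members, compared with 24.5% of all genes. Timp3 led with 3.44 ± 0.42 log2 units (adjusted p = 4.4e-05), reading 11.59, 11.07 and 10.81 against 8.10, 7.60, 7.09, 6.79 and 8.99. Col5a2 (3.31 ± 0.46), Dcn (3.14 ± 0.27), Lox (3.10 ± 0.47), Col3a1 (3.06 ± 0.54), Col8a1 (3.0 ± 0.60), Col1a2 (2.81 ± 0.40) and Thy1 (2.81 ± 0.26) followed.

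The iPSC values of these genes varied between clones. Col5a2 read 12.07, 11.80 and 11.74 in the partial clone and 9.15, 7.99, 7.80, 7.84 and 10.02 in the iPSC clones. Lox read 9.46, 8.33, 8.18, 8.34 and 10.55, Col8a1 8.29, 6.38, 6.03, 6.33 and 8.81 and Thy1 7.26, 6.84, 6.87, 6.71 and 8.05 in the iPSC clones, against 10.50, 9.96 and 10.04 for Col8a1 and 9.81, 10.13 and 9.91 for Thy1 in the partial clone. Col3a1 read 10.40, 8.45, 8.43, 7.53 and 9.76 and Col1a2 10.23, 9.02, 8.97, 8.39 and 10.32 in the iPSC clones, where OSK wt and OCK ko clone 2 were the higher clones. For Col5a2, Lox, Col8a1 and Thy1 the highest iPSC value was that of OCK ko clone 2, still below all 3 partial arrays.

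The 2 members called lower in the partial clone, Fbln1 and Pdgfra, were not lower by all their probe sets. By the probe set used, Fbln1 read 7.15, 7.71 and 7.51 in the partial clone, below every iPSC clone (-2.08 ± 0.12, adjusted p = 2.2e-07). By a second Fbln1 probe set of like brightness it read 8.85, 9.19 and 8.28 in the partial clone and 8.40, 8.36, 8.39, 8.52 and 8.25 in the iPSC clones, a difference of 0.39 the other way. The probe sets of Fbln1 disagree, so no direction is given for the gene. Pdgfra was lower by 0.69 log2 units on average (-0.69 ± 0.21, adjusted p = 0.0154), at 6.84, 6.23 and 6.63 against 7.17, 7.71, 7.49, 6.69 and 7.23, and here 1 of the 3 partial arrays overlapped the iPSC range. Its other 2 probe sets gave 0.04 and 0.05, and Pdgfra was no longer called with the mean of its probe sets (-0.20, adjusted p = 0.141) or without the siTcf3 A array (adjusted p = 0.0807). Among members higher by the probe set used, a second probe set gave no difference or a negative one for Sparc (0.87 against 0.0), Col5a1 (2.05 against -0.27, with 1.61 by another) and Eln (0.42 against -0.14). Eln was no longer called with the mean of its probe sets (adjusted p = 0.253). Fbn2, at the floor in the partial clone, and Ptn were not called (adjusted p = 0.0804 and 0.323). By role, all 6 fibrillar collagens, both lysyl oxidases and both cytoplasmic genes were called higher in the partial clone.

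**Figure D4:**
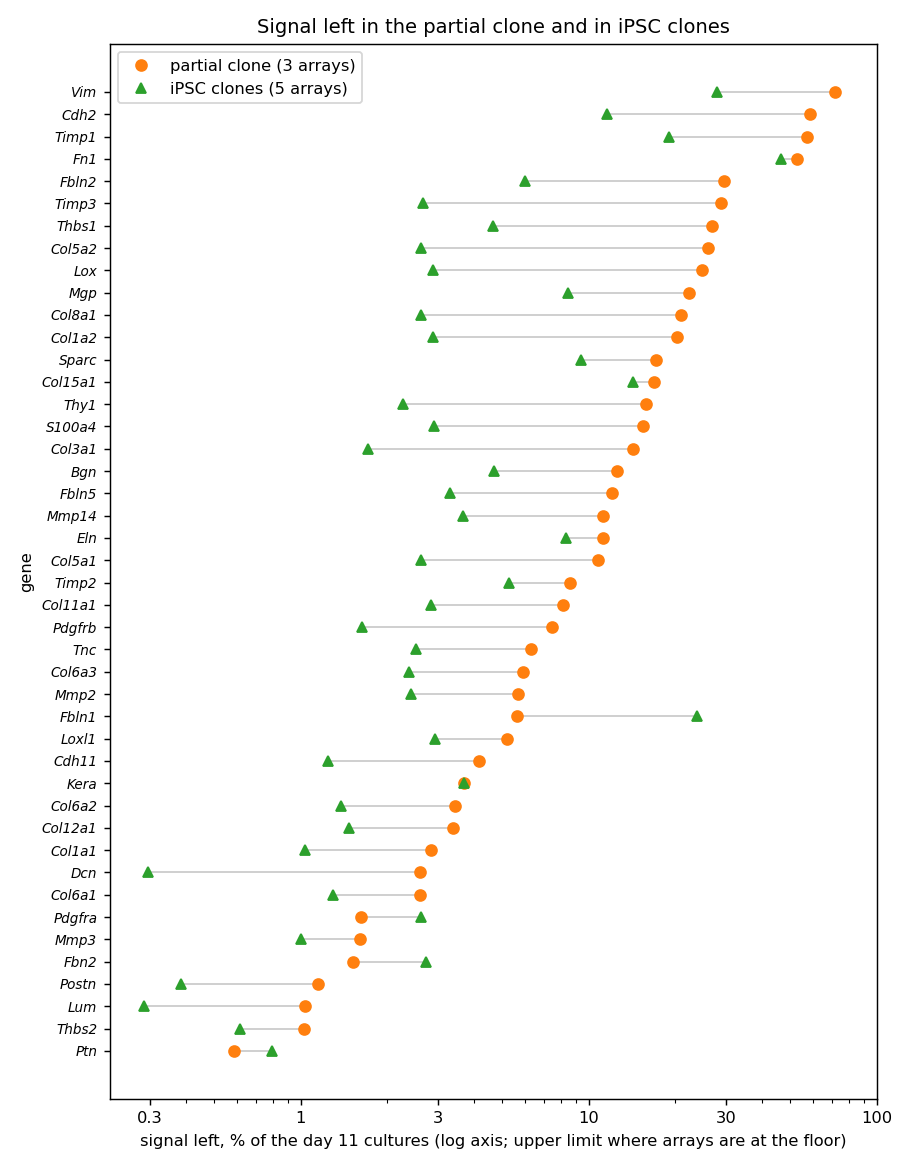
Linear signal left in the partial clone (circles, 3 arrays) and in the iPSC clones (triangles, 5 arrays), as a percentage of the mean of the day 11 cultures on a log axis; where arrays are at the floor the value is an upper limit. Vim (71.8% and 27.9%) and Fn1 (52.8% and 46.4%) are kept best; Fbln1 is drawn from 1 of 2 bright probe sets that disagree.

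The 5 iPSC clones did not carry the same remnants. OSK wt and OCK ko clone 2 were each the highest of the 5 for 19 members (22.3% and 20.6% of all genes), and OCK ko clone 1 was the lowest for 24 (24.4% of all genes). Members at the floor numbered 1 in OSK wt, 8 in each OSK ko clone, 12 in OCK ko clone 1 and 6 in OCK ko clone 2. These are single arrays of single clones.

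The order of the clones can be read from members of each role. Col5a1 read 7.66, 7.02, 7.0, 6.54 and 7.84 and Col11a1 6.11, 5.64, 5.64, 5.64 and 5.64 in the order given above, and Col6a1 and Col6a2 read 7.41, 6.66, 6.81, 5.64 and 6.70 and 7.37, 6.98, 6.97, 6.32 and 6.74. Eln read 6.19, 6.22, 6.04, 5.94 and 5.64, Fbln2 8.97, 8.81, 8.64, 7.85 and 9.58 and Tnc 7.53, 5.89, 5.65, 5.64 and 7.18. Bgn read 10.02, 9.76, 9.45, 8.63 and 10.56, Loxl1 7.94, 7.49, 7.53, 6.63 and 7.57 and Mmp2 8.79, 8.22, 8.27, 8.09 and 8.06. Timp2 read 9.71, 9.45, 9.34, 8.53 and 10.59 and S100a4 8.55, 8.06, 7.69, 7.03 and 9.54, and both showed a spread of more than 1 log2 unit between clones.

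OSK ko clones were called lower than the OSK wt clone for 3 of 43 members (0.387% of all genes), Ptn, Fbn2 and Postn, and higher for 0. Ptn read 7.47 in wt and 5.64 in both ko clones, and 5.64 and 6.14 in the OCK ko clones (adjusted p = 0.0263). Fbn2 read 7.44 and 5.64 in both (adjusted p = 0.0292), and Postn 6.88 and 5.64 in both (adjusted p = 0.0271). Since the ko clones are at the floor, the wt signal was at least 3.55-fold, 3.47-fold and 2.35-fold higher.

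The wt clone was above both ko clones for 37 of 44 members, compared with 38.9% of all genes, and the median difference, ko minus wt, was -0.64. Col8a1 read 8.29 in wt against 6.38 and 6.03, and Col3a1 10.40 against 8.45 and 8.43; neither was called (adjusted p = 0.414 and 0.382). The mean of the 7 smooth muscle and pericyte markers was 6.99 in OSK wt and 6.52 and 6.51 in the ko clones, with Tagln the brightest, at 10.59, 8.29 and 8.20. Cnn1 read 6.71, 5.64 and 5.64, Des 8.05, 7.81 and 8.03, and Cspg4, higher in ko, 6.65, 6.94 and 6.79. The other markers, Acta2, Myh11 and Rgs5, were at the floor in these clones. The part of smooth muscle and pericyte cells in the difference was not tested. The comparison has only 1 wt array, which cannot be left out. No member was called with the 5 iPSC arrays alone, or without either OSK ko clone or either siTcf3 array. In those fits no gene at all was called, so the lost calls are not particular to the members. Without either OCK ko clone 21 members were called lower (5.05% and 5.12% of all genes without clone 1 and clone 2).

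Between factor sets, OCK ko against OSK ko clones gave 2 of 39 members called higher (4.87% of all genes) and 0 lower (5.8% of all genes). Fbn2 read 7.12 and 6.61 in the OCK ko clones against 5.64 in both OSK ko clones (adjusted p = 0.0132), and Fbln5 7.18 and 7.73 against 6.49 and 6.74 (0.84 ± 0.19, adjusted p = 0.0472). Leaving out either OCK clone leaves 1 OCK ko array, assumed to vary like the other groups. Without OCK ko clone 1, 25 members were called higher (9.92% of all genes) and 1 lower (13.3% of all genes). Without OCK ko clone 2, 2 were higher (13.9% of all genes) and 15 lower (14.5% of all genes). Each of these fits compares the remaining OCK clone, a single array, with the OSK ko clones. The estimate of the spread also changes with the array left out. The part of each in the counts was not tested. No member was called without either siTcf3 array (1.77% of all genes higher and 1.44% lower) or with the 5 iPSC arrays alone (1.36% and 0.922%). The calls were also lost without either OSK ko clone, which leaves 1 OSK ko array.

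OCK ko clone 2 was above clone 1 for 34 of 44 members, compared with 47.7% of all genes, and at least 2-fold above it for 23 (1.82% of all genes). The median difference was 1.04 log2 units. S100a4 read 7.03 in clone 1 and 9.54 in clone 2, Col8a1 6.33 and 8.81, Col3a1 7.53 and 9.76, and Lox 8.34 and 10.55. These are 5.69-fold, 5.58-fold, 4.66-fold and 4.63-fold, with no replicate. Some members did not follow: Lum, Postn, Thbs2 and Col11a1 were at the floor in both, and Fbn2 was 7.12 in clone 1 and 6.61 in clone 2. The mean of the smooth muscle and pericyte markers was 6.41 in clone 1 and 6.80 in clone 2. Tagln read 8.13 and 9.94, Des 7.35 and 7.57, Cspg4 6.85 and 7.18 and Cnn1 5.64 and 5.99, with the rest at the floor. The part of these cell types was not tested. The hyaluronan receptor gene Cd44 read 6.78 and 9.86.

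The 2 clones with the most high members were each set against the partial clone. Across the 44 members, OCK ko clone 2 minus clone 1 correlated with partial clone minus day 11 at a Pearson r of 0.48 and a Spearman rho of 0.47. For OSK wt minus the OSK ko mean the values were -0.1 and -0.06. The clone differences themselves, OCK ko clone 2 minus clone 1 and OSK wt minus the OSK ko mean, correlated at an r of 0.37 and a rho of 0.40. These are correlations across genes, given as a description, and no array enters both sides of any of them. Each gene is read from the same probe set on both sides, and all genes share a floor. The difference between these correlations was not tested.

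**Figure D5:**
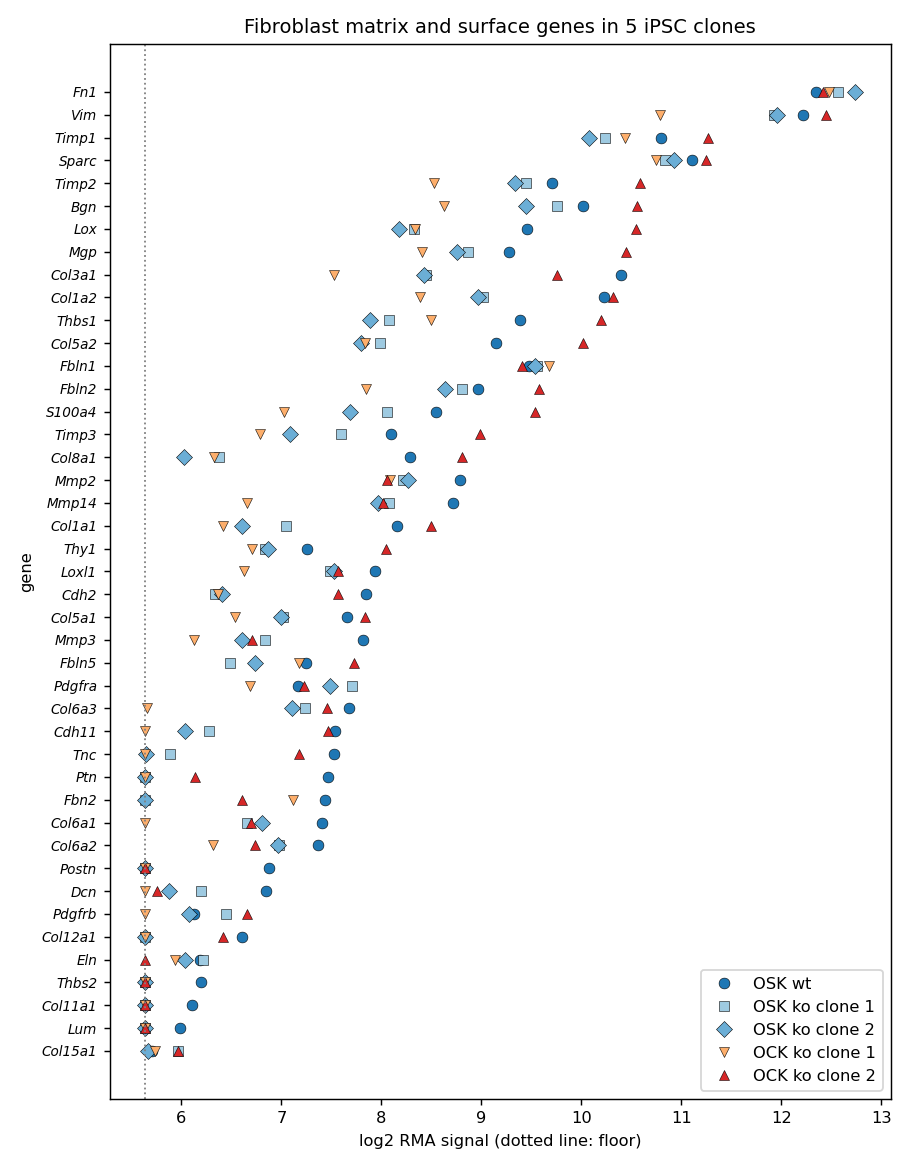
Log2 RMA signal of the 43 genes above the floor (dotted line, 5.64) in at least 1 of 5 iPSC clones, 1 array per clone, ordered by the highest clone. OSK wt (dark blue circles) or OCK ko clone 2 (red triangles) is highest for 38 of the genes, while Fn1 is nearly alike in all clones.

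Other genes of the matrix pathway followed in part. Of 13 collagen-processing enzymes and chaperones, 8 were called lower over the days, led by P4ha3 (-0.10 ± 0.035), a prolyl hydroxylase subunit, and by P3h1 (-0.092 ± 0.011) and Crtap (-0.089 ± 0.016), which form a second prolyl hydroxylase complex. Of 18 further matrix genes 12 were called lower, with Aspn (-0.18 ± 0.035), Mfap4 (-0.14 ± 0.042) and Mfap2 (-0.14 ± 0.028) the largest. Of 13 basement membrane genes 8 were lower, led by Col4a5 (-0.086 ± 0.021) and Agrn (-0.078 ± 0.023), and 1, the laminin chain Lama5, was higher (0.075 ± 0.023). Of 15 matrix receptors 8 were lower, led by the integrin chains Itgb3 (-0.11 ± 0.015) and Itga1 (-0.10 ± 0.024), and 1, Itga3, was higher (0.10 ± 0.024). Over all genes, 18.7% were called lower and 18% higher.

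In the iPSC clones against day 11, all 18 further matrix genes and 12 of 13 collagen-processing genes were called lower, but basement membrane genes divided into 9 lower and 3 higher (31.4% and 38.0% of all genes). The higher ones, named after their values were seen, were Lama1 (3.0 ± 0.37), Lama5 (1.0 ± 0.34) and Col18a1 (0.77 ± 0.16). Against the iPSC clones, the partial clone had 6 of 13 basement membrane genes lower (34.8% of all genes), led by Nid2 (-3.42 ± 0.14) and Col18a1 (-2.40 ± 0.14). It had 3 of 13 higher (25.9% of all genes), led by Col4a5 (2.02 ± 0.37). Cd44 (4.07 ± 0.52), Ltbp1 (2.90 ± 0.26), which anchors latent TGF-beta, and the collagen receptor Ddr2 (2.87 ± 0.27) were among the genes higher in the partial clone. OSK ko against OSK wt called 0 genes in these 4 lists (limma). At an unadjusted p under 0.05 it was 4 of 13 basement membrane, 1 of 13 collagen-processing, 3 of 13 receptor and 1 of 15 further matrix genes. Over all genes it was 1623 of 12670.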

How the data were processed

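RNA from 18 mouse samples was hybridised to Affymetrix arrays, 1 array per sample. The deposited values are log2 signals that the authors made with RMA, per the submitters' processing notes, in which no version is given. On each array 44.95% to 46.62% of values sat at 5.64, the log2 of 50, a floor seen in the values that no label names; the scanner files were not used here. The number of arrays limits the precision.

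The 46 genes and all lists were chosen with earlier results of these data known. Probe sets were named through GEO's platform annotation: of 40508, 31076 had 1 gene symbol, 636 several and 8796 none listed. Each gene was read from its probe set with the highest mean. Groups came from the labels. Tests were run with limma 3.58.1 under R 4.3.3 (lmFit, contrasts, eBayes) on 10 culture arrays (a line over days per genotype, or genotype with day as a block), on 10 arrays of day 11, partial clone and iPSC stages, or on 8 partial and iPSC arrays. The variance prior was estimated on genes with no floored array in the fit, genes with a floored array were given at least that variance, and genes at the floor on all arrays compared were not tested. The p-values were adjusted by Benjamini-Hochberg over all genes tested, with a threshold of 0.05. The scripts were tested on simulated data.

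Values on every array are given for the 2 members per role with the highest day 11 mean, the 10 largest called slopes of the mean of wt and ko, up to 8 called members in each other comparison, the 5 highest members in the partial clone and in the iPSC clones, and members whose highest clone stood 1 log2 unit above the next. Up to 3 called genes were named per other list. Alternatives were another variance prior, quantile normalization, median centring, averaging a gene's probe sets, a filter on floored genes, other samples in the fit, days or arrays left out and, for the OCK and OSK ko clones, the clone number as a block. The labels do not say that clones with the same number share a source.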

Additional observations from a re-analysis of the deposited data

Results flagged for a closer look

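In 7 members 1 of the 5 iPSC clones stood farther from the other 4 than Dixon's 95% critical value of 0.71 allows. Each value is 1 array. Only the members were checked, so there is no share over all genes to set beside this count. In 6 of them the clone that stood apart was the OSK wt clone and the highest: Col11a1 read 6.11, Postn 6.88, Thbs2 6.20, Ptn 7.47, Lum 5.99 and Mmp2 8.79. In Col11a1, Postn, Thbs2 and Lum the other 4 clones were tied at the floor of 5.64, so the gap equals the whole range for any value above it and the rate at which chance gives such a gap, about 1 in 20 groups, holds for none of these 4. In Ptn 3 of the others were at the floor. In Col6a3 the OCK ko clone 1 stood apart as the lowest, at 5.66.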

How the results depend on the processing

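Counts are called members. For the mean slope of wt and ko (31) the count was 12 with limma's plain variance prior (9.57% of all genes lower). It was 1 with day means (1.04%) and 0 with days 11, 15 and 19 only, an alternative chosen after seeing the data. Leaving out 1 day gave 0 to 40 for that slope (0 to 19.8% of all genes lower). For the ko slope (11) it gave 0 to 35 (0 to 13.7%), and for the wt slope (0) it gave 0 to 1 (0 to 0.428%). The plain prior gave 0 for ko. With only genes above the floor on every array, just 29 members were tested against day 11. The partial clone had 27 of them (42 in the main fit), with 25.6% of all genes lower. The iPSC clones had 29 (44), with 30% of all genes lower. For OSK ko minus wt (3) the plain prior gave 1, the mean of probe sets 1, the filter on floored genes 0 and the 5 iPSC arrays alone 0, and leaving out 1 array gave 0 to 21. For OCK ko minus OSK ko (2) the plain prior gave 0, quantile normalization 1, the mean of probe sets 0, the filter 1 and the 5 iPSC arrays alone 0, and leaving out 1 array gave 0 to 26. For siTcf3 (0) leaving out 1 array gave 0 to 4. With the clone number as a replicate block, OCK ko minus OSK ko gave 2, and the crossed block, added after seeing the data, also gave 2; the deviations of same-numbered clones correlated at -0.121 over 12995 genes. The cause of these moves was not tested. No gene at all was called for the mean slope without day 11 or with days 11, 15 and 19 only. The same was true of the ko slope without day 11 or 15, and of OSK ko minus wt with the 5 iPSC arrays alone. For OSK ko minus wt it also held without either OSK ko clone or either siTcf3 array. No called value changed sign under an alternative that was run. Signals near the floor, and near the top of the scale as for Col3a1, limit what can be measured.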
